A study of Mus musculus with 9 samples.

Results

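The translation initiation and elongation factors are the proteins that bring messenger RNA, the initiator tRNA and the ribosome together and then carry the ribosome along the message. They were taken here as all protein-coding mouse genes whose symbol begins with Eif or Eef followed by a digit. The rule found 87 genes in the annotation, and 80 of them were in the count tables, out of 32976 genes in all and 20726 protein-coding genes. The 7 genes of the annotation without a row were Eef1akmt4, Eef1ece2, Eif1ad4, Eif1ad12, Eif1ad13, Eif1ad18 and Eif4a3l2, which were not analysed here.

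The 9 libraries came from tumor-infiltrating CD8+ CD44+ T cells (TILs) of wildtype BALB/c mice that carried CT26 tumors, a colorectal carcinoma line of that strain, and that all received anti-PD-1 (clone RMP1-14) on days 3, 6 and 9. Cells were sorted with a tetramer of the tumor peptide GSW11, and the strength of tetramer staining separated high from low avidity cells. TetHighProg was high avidity cells from progressing tumors (replicates 1, 2 and 5), TetLowReg was low avidity cells from regressing tumors (replicates 6, 7 and 8), and TetLowProg was low avidity cells from progressing tumors (replicates 9, 10 and 12). RNA of each sorted population was copied into full-length cDNA by Smart-seq2, amplified by PCR and sequenced in bulk, without molecular identifiers. The 9 libraries hold none from untreated mice and none of high avidity cells from regressing tumors. The sources describe 3 progressing tumors, so TetHighProg and TetLowProg libraries may share tumors. Values for a gene are given in the order of the replicate numbers above.

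Translation starts when eIF2 carries the initiator tRNA to the small ribosomal subunit, eIF3 and the start-site factors eIF1 and eIF1A join, and the cap-binding complex eIF4F recruits the message. Then eIF5 and eIF5B let the large subunit join, eEF1 brings each aminoacyl-tRNA to the ribosome and eEF2 moves it by a codon. Resting T cells translate little, and activation through the T cell receptor is known to raise initiation through mTORC1, which releases the cap-binding protein eIF4E from the 4E-binding proteins, while kinases of eIF2 alpha lower it under stress.

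The libraries held 16405306 to 36429515 counts on genes, and a gene was taken as found in a library at 10 or more counts, which 599 to 8071 genes reached. Under 2000 genes were found in each of 4 libraries (1 and 2 of TetHighProg, 6 of TetLowReg, 10 of TetLowProg), which are called the libraries with few genes below. TetLowReg replicate 7 had 44.5% of its counts on mitochondrially encoded genes. The CD8 T cell markers (12 genes) were found in numbers of 7, 3 and 10 in TetHighProg, 8, 11 and 11 in TetLowReg and 12, 5 and 12 in TetLowProg, with at least one of Cd8a and Cd8b1 in every library. Cd44, on which the cells were gated, was below 10 counts in 5 libraries. The 6 B cell markers summed to at most 3.95e-06% of gene counts in TetHighProg, 0 to 0.109% in TetLowReg and 0 to 0.157% in TetLowProg. The macrophage and dendritic cell markers (12 genes, of which Cd74 had the most counts in most libraries) summed to 0.0734 to 0.154%, 0.000113 to 5.59% and 1.19e-05 to 6.10%, and were highest in TetLowReg replicates 7 and 8 and TetLowProg replicate 12. Of their defining genes, Lyz2 was found in TetHighProg 1 and 5, Lyz2, Cd68, Itgam and Adgre1 were found in TetLowReg 7, Lyz2 and Itgax in TetLowReg 8, Cd68 and C1qb in TetLowProg 9 and Lyz2 and Itgam in TetLowProg 12, while C1qa was at 0 throughout. Cd4 and Foxp3 were found in TetLowReg replicates 7 and 8 only, where they summed to at most 0.00588%, 3 of 5 erythroid genes were found in TetLowReg 7 and 8 and TetLowProg 12, and 9 tumor and stroma genes summed to at most 0.0387% in any library. The part of these cells in the values below was not tested, and in bulk samples fewer cells of a type and less RNA per cell cannot be told apart.

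The translation factor genes were largely found or missed library by library. Of the 80 genes, 11, 10 and 26 were found in TetHighProg, 6, 50 and 46 in TetLowReg, and 55, 11 and 55 in TetLowProg. The 4 libraries with few genes thus held 6 to 11 members each and the other 5 held 26 to 55, in all 3 groups. TetHighProg averaged 15.7 ± 8.96 genes (SD over 3 libraries), TetLowReg 34 ± 24.3 and TetLowProg 40.3 ± 25.4. The difference of 18.3 genes between TetLowReg and TetHighProg had an exact two-sided permutation p of 0.4, that of 24.7 between TetLowProg and TetHighProg a p of 0.3 and that of 6.33 between TetLowProg and TetLowReg a p of 0.5, and 3 libraries against 3 cannot give a p under 0.1. Adjusted over the 6 comparisons of this kind made here, these exact p values were 0.48, 0.45 and 0.5. The direction between the low avidity groups turned without TetLowReg replicate 6, where TetLowProg minus TetLowReg was -7.67 genes, and without TetLowProg replicate 9 or 12, where it was -1.

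**Figure D1:**
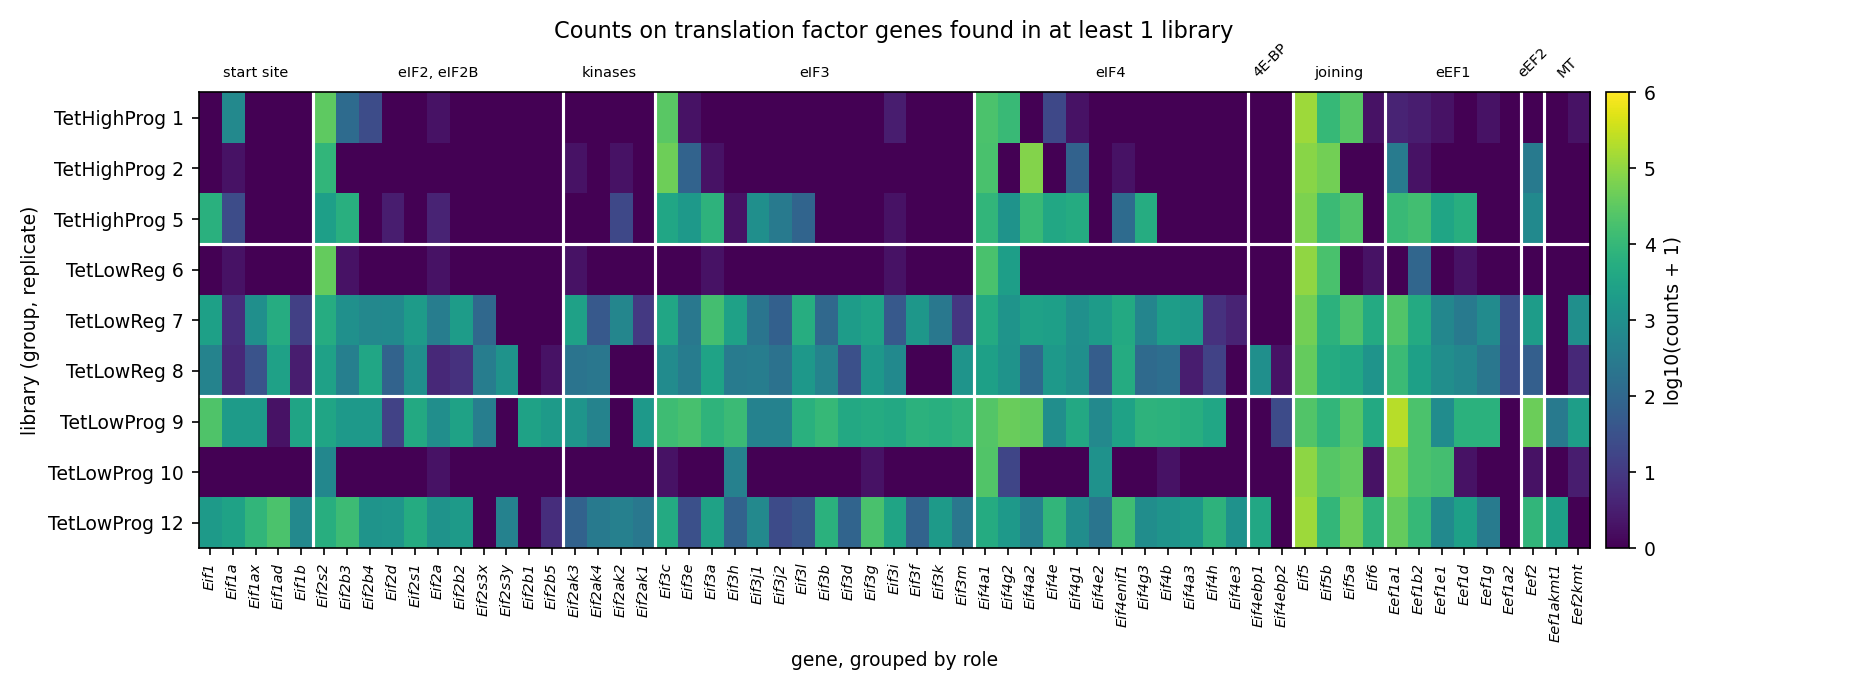
Counts on each of the 61 translation factor genes found in at least 1 library, one row per library and one column per gene, grouped by role (joining, subunit joining and recycling; 4E-BP, 4E-binding inhibitors; MT, methyltransferases of elongation factors), with color for log10(counts + 1). The columns under eIF2, eIF2B also hold Eif2a and Eif2d, which encode separate factors. The rows of TetHighProg 1 and 2, TetLowReg 6 and TetLowProg 10 are mostly at 0, while Eif5, Eif5b, Eif4a1 and Eif2s2 are filled in all 9 rows.

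Eif5, Eif5b, Eif4a1 and Eif2s2 were the 4 members with at least 10 counts in all 9 libraries. They made up 5% of the members, whereas 180 of all 32976 genes (0.546%) and 165 protein-coding genes (0.796%) were found that widely. Eif4g2 was found in 8 libraries, Eef1a1, Eef1b2, Eif3c and Eif5a in 7, and 19 members in none, of which 14 were at 0 throughout. The 4 genes found everywhere took 73.7, 57.1 and 44.8% of the members' counts in TetHighProg, 98.7, 34.6 and 47.7% in TetLowReg and 9.12, 50.2 and 36.4% in TetLowProg.

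Eif5, the GTPase activator that makes eIF2 let go of the initiator tRNA once the start codon is found, had the most counts of any member in 8 of 9 libraries. Its level in CPM (counts scaled to the total of gene counts in the library) was 3877, 3353 and 2951 in TetHighProg, 4682, 1435 and 2318 in TetLowReg and 635, 3899 and 4160.2 in TetLowProg. The levels spanned 7.37-fold from TetLowProg replicate 9 to TetLowReg replicate 6, and the 3 groups overlapped. Among all genes it ranked between 19 (TetLowProg replicate 12) and 167 (TetLowProg replicate 9) by counts. Its fitted log2 difference was -0.41 ± 2.03 (SE) for TetLowReg against TetHighProg, -0.57 ± 2.04 for TetLowProg against TetHighProg and -0.16 ± 2.03 between the low avidity groups, with adjusted p of 0.954, 0.936 and 1 by edgeR's quasi-likelihood test.

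Eif5b, the GTPase that joins the large subunit, stood at 309, 2072 and 535 CPM in TetHighProg, 860.3, 194 and 302 in TetLowReg and 241, 1053 and 295 in TetLowProg. The highest library in each group was one with few genes found. Eif4a1, the helicase that unwinds the 5' leader, showed 588, 759 and 402 CPM, then 849, 131 and 153, then 693, 956 and 154. Its levels spanned 7.29-fold and overlapped between all groups. Eif2s2, the beta subunit of eIF2, was at 997, 347 and 109 CPM in TetHighProg, 1742, 141 and 165 in TetLowReg and 94.0, 23.9 and 183 in TetLowProg, a 72.8-fold span. Groups overlapped for all 3 genes in each comparison, and the smallest of their adjusted p by edgeR was 0.668, for Eif2s2 in TetLowProg against TetHighProg.

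**Figure D2:**
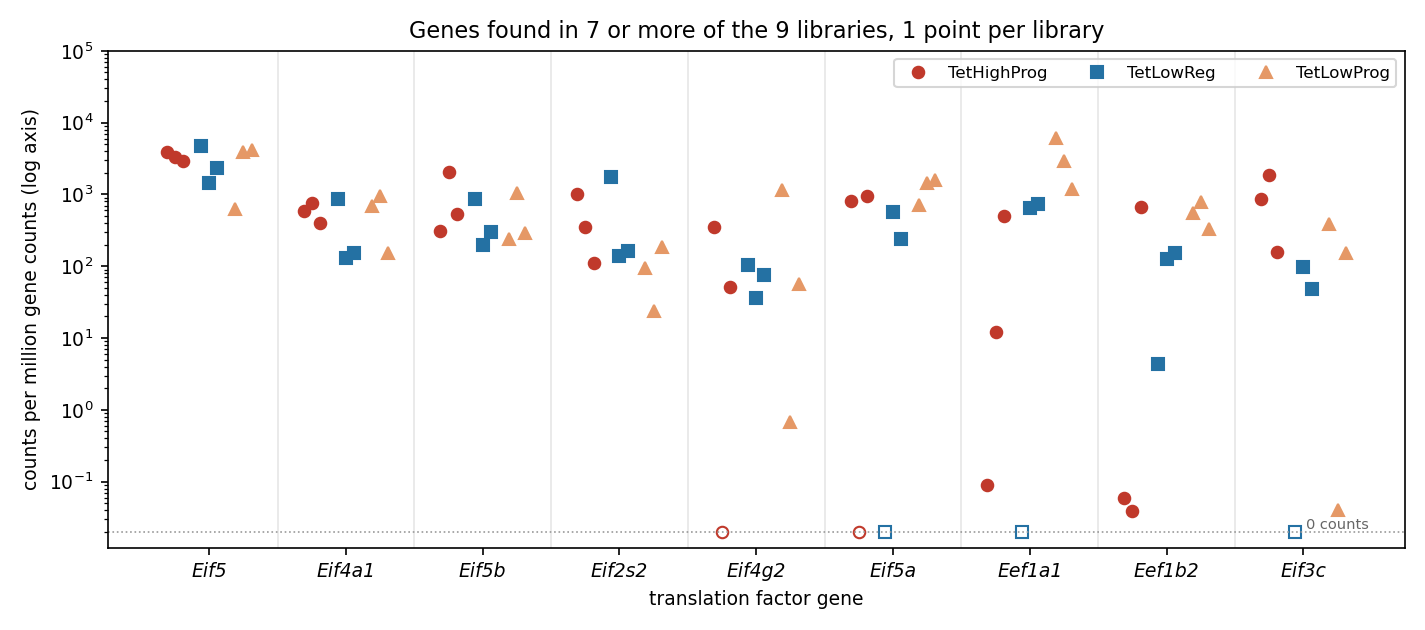
Level of the 9 members found in 7 or more libraries, in CPM on a log axis, with 1 point per library (circles, TetHighProg; squares, TetLowReg; triangles, TetLowProg) and open symbols on the dotted line for libraries at 0 counts. The triangles of Eef1a1 all lie above the other 6 libraries, while those of Eif5, Eif4a1, Eif5b and Eif2s2 mix with them.

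Eef1a1, Eef1b2 and Eif5a were each higher in every TetLowProg library than in every TetLowReg library. These 3 were the members whose libraries did not overlap in that direction, out of 50 tested, against 2.77% of all 5813 genes tested, and no member was lower without overlap (0.654% of genes). Eef1a1 encodes the GTPase that delivers aminoacyl-tRNA. It was at 0.0898, 12.2 and 506 CPM in TetHighProg, 0, 655 and 735 in TetLowReg and 6188, 2948 and 1204 in TetLowProg, so that the lowest TetLowProg library exceeded the highest of the other 6. Its mean was 3447 ± 2529 CPM (SD, n = 3) in TetLowProg, 463 ± 403 in TetLowReg and 173 ± 289 in TetHighProg. The pooled ratios were 7.55-fold over TetLowReg and 25-fold over TetHighProg. With edgeR the log2 differences were 1.99 ± 2.63 (SE, adjusted p = 1) and 4.16 ± 2.89 (adjusted p = 0.319), which did not pass the test, while limma-voom gave an adjusted p of 0.00767 against TetHighProg and 0.999 against TetLowReg.

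Eef1b2, the exchange factor that reloads eEF1A with GTP, was at 0.0599, 0.0395 and 674 CPM in TetHighProg, 4.31, 127 and 153 in TetLowReg and 549, 775 and 329.8 in TetLowProg. TetHighProg replicate 5 lay inside the range of TetLowProg, and the other TetHighProg libraries held 1 or 2 counts. Eif5a, the hypusine-bearing factor that helps the ribosome past proline-rich stretches, was at 814, 0 and 962 CPM in TetHighProg, 0, 569 and 239 in TetLowReg and 723, 1444 and 1606 in TetLowProg. Against TetLowReg the edgeR log2 differences were 1.82 ± 3.51 (SE) for Eef1b2 and 1.43 ± 2.85 for Eif5a, both at an adjusted p of 1. TetLowProg replicate 10 found only 11 members but all 3 of these genes, and it held 0 of 12 macrophage and dendritic cell markers and 0 of 6 B cell markers at 10 counts. TetLowProg replicate 12, with 6.10% of counts on the macrophage and dendritic cell list, had the highest Eif5a level and the lowest Eef1a1 and Eef1b2 levels of its group.

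The other eEF1 genes were found in fewer libraries. Eef1g, the gamma subunit that anchors the exchange complex, held 1, 0 and 0 counts in TetHighProg, 0, 787 and 244 in TetLowReg and 6792, 0 and 310 in TetLowProg. Eef1e1, a partner of the aminoacyl-tRNA synthetases, and Eef1d, a second exchange factor, were found in 6 and 5 libraries. Eef1a2, the isoform of muscle and neurons, reached 26 and 25 counts in TetLowReg replicates 7 and 8 and was at 0 in the other 7 libraries. Per kilobase of exon, Eef1a1 exceeded Eef1a2 in 8 libraries and both were at 0 in TetLowReg replicate 6.

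The members together took 0.783, 1.14 and 0.893% of gene counts in TetHighProg, 0.824, 0.549 and 0.616% in TetLowReg and 1.82, 1.18 and 1.32% in TetLowProg. The 95% Clopper-Pearson intervals, which cover counting error only, were at most 0.00871 percentage points wide. Every TetLowProg library lay above the other 6, although TetLowProg replicate 10 exceeded TetHighProg replicate 2 by little. TetLowProg exceeded TetLowReg by 0.777 percentage points and TetHighProg by 0.500 (exact permutation p = 0.1 for each, the smallest possible, and 0.3 adjusted over the 6 comparisons). TetLowReg minus TetHighProg was -0.277 percentage points (exact p = 0.2, adjusted 0.4). Leaving out 1 library moved some of these, since TetLowProg exceeded TetHighProg by 0.308 percentage points without TetLowProg replicate 9, and TetLowReg minus TetHighProg was -0.175 without TetHighProg replicate 2. Without Eef1a1, an alternative added after seeing the data, the TetLowProg values were 1.21, 0.886 and 1.196%, so that replicate 10 lay among the TetHighProg libraries, and the difference from TetHighProg was 0.173 percentage points (exact p = 0.2). In the same setting the TetLowReg values were 0.824, 0.484 and 0.542%, still below every TetLowProg library, though TetLowReg replicate 6 was close to TetLowProg replicate 10. Without mitochondrially encoded genes in the total, the TetLowReg values were 0.838, 0.990 and 0.717%, and TetLowReg minus TetHighProg was -0.125.

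**Figure D3:**
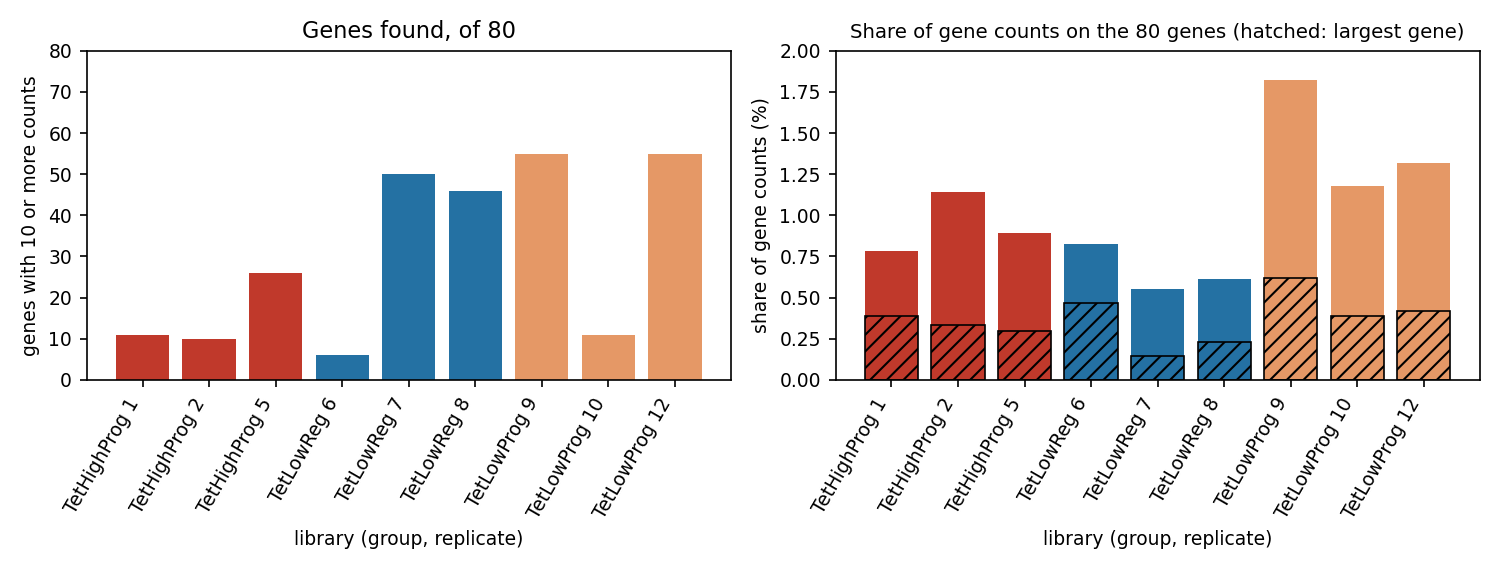
Left, the number of translation factor genes with 10 or more counts in each library, of 80; right, the share of gene counts on all 80 genes, with the share of the largest gene hatched. The number found is 6 to 11 in 4 libraries spread over the 3 groups, whereas the share is highest in the 3 TetLowProg libraries, at 1.18 to 1.82%.

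Among start-site factors, Eif1, which guards start codon selection, held 0, 0 and 6378 counts in TetHighProg, 0, 2584 and 483 in TetLowReg and 22558, 0 and 1894 in TetLowProg. Eif1a, its partner in scanning, held 666, 1 and 24 counts, then 1, 5 and 4, then 1956, 0 and 2895, and its X-linked copy Eif1ax 0, 0 and 0, then 0, 995 and 33, then 1987, 0 and 8989. TetHighProg replicate 1 thus held Eif1a with Eif1ax at 0, while TetLowReg replicate 7 held Eif1ax with Eif1a below 10 counts, and each gene was the higher of the pair per kilobase in 4 libraries. Of the 13 Eif1ad genes in the tables, Eif1ad alone reached 10 counts, with 5194 and 2736 in TetLowReg replicates 7 and 8 and 19683 in TetLowProg replicate 12, and at most 1 in the rest.

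The genes of eIF2 and of its exchange factor eIF2B were counted together with Eif2a and Eif2d, which encode separate factors. They were found in numbers of 3, 1 and 2 of 11 in TetHighProg, 1, 8 and 7 in TetLowReg and 10, 1 and 8 in TetLowProg. Eif2s1, the alpha subunit that the stress kinases phosphorylate, held 0 in all 3 TetHighProg libraries, 0, 1970 and 986 counts in TetLowReg and 4340, 0 and 4811 in TetLowProg. In TetLowProg replicate 10 the beta subunit was therefore found with 602 counts while the alpha and gamma subunits were at 0, and the same held for TetHighProg replicates 1, 2 and 5 and TetLowReg replicate 6. The gamma subunit has an X-linked and a Y-linked gene. Eif2s3x held 106 and 356 counts in TetLowReg replicates 7 and 8 and 367 in TetLowProg replicate 9, and Eif2s3y 1191 in TetLowReg replicate 8 and 449 in TetLowProg replicate 12, with 0 everywhere else. The exchange factor eIF2B was found in part as well, and its catalytic subunit Eif2b5 passed 10 counts in TetLowProg replicate 9 alone (1901 counts).

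The 4 eIF2 alpha kinases were found in no TetHighProg library except for Eif2ak2. Eif2ak1, the heme-regulated kinase HRI, held 9 counts in TetLowReg replicate 7, 1788 in TetLowProg 9 and 249 in TetLowProg 12, and 0 elsewhere. Eif2ak2, the double-stranded RNA sensor PKR, held 0, 1 and 19 counts in TetHighProg, 0, 552 and 0 in TetLowReg and 0, 0 and 418 in TetLowProg. Eif2ak3, the endoplasmic reticulum kinase PERK, held 0, 1 and 0, then 1, 2698 and 206, then 1331, 0 and 74, and Eif2ak4, the amino acid sensor GCN2, 0, 0 and 0, then 0, 47 and 244, then 481, 0 and 285. No library with few genes reached 10 counts of any kinase. The targets downstream of eIF2 phosphorylation (12 genes in the tables, among them Atf4, Ddit3 and Ppp1r15a) were found in numbers of 0, 3 and 4 in TetHighProg, 0, 7 and 7 in TetLowReg and 6, 4 and 7 in TetLowProg. Of the 6 that entered the edgeR test, none was called in any comparison (DESeq2 on the 2 groups called 1 of 5, 1 of 5 and 0 of 5, where it called 34.4, 47.5 and 0.3% of all genes it tested), and their median log2 differences were -0.59, 2.59 and 1.52 for TetLowReg and TetLowProg against TetHighProg and for TetLowProg against TetLowReg.

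The 14 eIF3 genes encode the scaffold that holds the small subunit open for the message. They were found in numbers of 1, 2 and 6 in TetHighProg, 0, 13 and 12 in TetLowReg and 14, 1 and 14 in TetLowProg. Eif3c, a core subunit, was the exception to the pattern of the family, with 862, 1854 and 156 CPM in TetHighProg, 0, 97 and 48.8 in TetLowReg and 381, 0.0398 and 151 in TetLowProg. It was lower in every TetLowReg than in every TetHighProg library, the only one of 50 members tested to be so, against 0.998% of all genes tested. The edgeR log2 difference was -4.22 ± 3.37 (SE, adjusted p = 0.426), and DESeq2 on the 2 groups gave an adjusted p of 0.147.

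Eif3a, the largest eIF3 subunit, held 0, 1 and 7614 counts in TetHighProg, 1, 15747 and 3042 in TetLowReg and 8123, 0 and 2851 in TetLowProg. Eif3b, which binds next to it, held 0 in the 3 TetHighProg libraries, 0, 108 and 476 in TetLowReg and 10360, 0 and 6701 in TetLowProg. Eif3g, an RNA-binding subunit, held 0 in all TetHighProg libraries, 0, 3029 and 1541 in TetLowReg and 4844, 1 and 18750 in TetLowProg. For Eif3h the counts were 0, 0 and 1, then 0, 2705 and 312, then 12191, 428 and 77, so that each TetLowProg library was well above the TetHighProg libraries, the one with few genes included. In all, 8 of the 14 genes were below 10 counts in all 3 TetHighProg libraries.

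In the cap-binding group, Eif4a2, the second eIF4A helicase, held 0, 76736 and 11280 counts in TetHighProg, 0, 2680 and 114 in TetLowReg and 36809, 0 and 456 in TetLowProg. Per kilobase of exon Eif4a1 exceeded it in 6 libraries, while in TetHighProg replicate 2 Eif4a2 was at 522 and Eif4a1 at 157 CPM per kilobase. Eif4g2, which lacks the site for eIF4E and serves cap-independent initiation, was at 356, 0 and 52 CPM in TetHighProg, 105, 35.8 and 74.8 in TetLowReg and 1166, 0.676 and 56.1 in TetLowProg. Eif4g1, the main eIF4F scaffold, held 1, 75 and 5035 counts, then 0, 1042 and 998, then 4229, 0 and 853, and Eif4e, the cap-binding subunit, 19, 0 and 3915, then 0, 2400 and 1675, then 899, 0 and 8918. Neither was found in TetLowReg replicate 6 or TetLowProg replicate 10, where Eif4a1 held 18717 and 24036 counts.

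Eif4e2, a cap-binding homolog that competes with eIF4E and represses translation, was at 0 in all TetHighProg libraries, 0, 1990 and 59 counts in TetLowReg and 671, 1152 and 219 in TetLowProg. Eif4b, which stimulates the helicase, was also at 0 in TetHighProg, 0, 2165 and 146 in TetLowReg and 7050, 1 and 1273 in TetLowProg. The inhibitors that mTORC1 acts on were found in few libraries, with Eif4ebp1 at 962 counts in TetLowReg replicate 8 and 4015 in TetLowProg replicate 12 and at 0 in the other 7 libraries, and Eif4ebp2 at 1 count in TetLowReg replicate 8, 23 in TetLowProg replicate 9 and 0 in the rest. A count of 0 allows a level of up to 0.0824 to 0.183 CPM, depending on the depth of the library. The genes of mTORC1 and cap control (16, among them Mtor, Rps6kb1 and Pdcd4) were found in numbers of 4, 3 and 6, then 4, 13 and 11, then 15, 5 and 13, and edgeR called none of the 11 tested in any comparison. DESeq2 on the 2 groups called 1 of 8 higher in TetLowReg and 5 of 11 higher in TetLowProg than in TetHighProg, where 33.9 and 47.4% of all genes it tested were called higher, so that neither count lay above the background, and it called 0 of 10 between the low avidity groups (0.3% of all genes).

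Eif6, which keeps the large subunit from joining too early, held 1, 0 and 0 counts in TetHighProg, 1, 4760 and 1249 in TetLowReg and 4429, 1 and 7842 in TetLowProg. The libraries with few genes held 0 or 1 count, so that the absence of overlap against TetHighProg rested on a count of 1 in a library of smaller total. Eef2, the translocase, held 0, 303 and 705 counts, then 0, 2054 and 64, then 44192, 1 and 8763, and Eef2k, the kinase that inactivates it, did not reach 10 counts in any library. Of 4 methyltransferases of the elongation factors, Eef1akmt1 and Eef2kmt were found in 2 libraries each, and Eef1akmt2 and Eef1akmt3 in none. Mitochondrial translation factors (6 genes), termination and recycling factors (5) and the enzymes that make hypusine and diphthamide (8) were found in numbers of 0 to 1, 0 to 2 and 0 to 2 in TetHighProg, 1 to 5, 0 to 4 and 0 to 5 in TetLowReg and 1 to 5, 0 to 5 and 1 to 7 in TetLowProg. None of the 3, 4 and 5 of them tested was called by edgeR in any comparison, while DESeq2 on the 2 groups called 1 of 2, 2 of 3 and 0 of 1 higher in TetLowReg and 2 of 3, 1 of 3 and 3 of 3 higher in TetLowProg than in TetHighProg. With 33.9 and 47.4% of all genes called higher by that tool, lists of 1 to 3 genes show nothing about these enzymes and factors.

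The question behind the comparisons is how low and high avidity T cells differ, and both contrasts with TetHighProg share its 3 libraries. The edgeR quasi-likelihood test was run over 5813 genes, with 50 of the 80 members among them, and a call needed an adjusted p below 0.05 together with a log2 difference of more than 2 in either direction. The p values measure the spread between these libraries, which the labels do not tie to separate animals. Members that passed the filter only through a group where they are high had to differ there, so that shares over the members tested are not shares of the family.

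For TetLowReg against TetHighProg, edgeR called 0 of 50 members, as it called 0 of all genes tested (0%). At an unadjusted p under 0.05 it listed 9 of 50 members, all higher in TetLowReg, against 19.5% of all genes tested (19% higher in TetLowReg). That count was 2 of 12 with a stricter filter (17% of all genes), 5 of 66 without a filter (4.38%) and 0 of 25 in a fit of the 2 groups alone (2.69%). With each library left out it was 0 to 18 (1.6 to 28.4% of all genes). The median fitted log2 difference was 6.65 over the members and 4.82 over all genes tested, and 33 of 50 members (66%) were above 0, against 72.7% of all genes tested. With groups at 0 set to 3 counts over the group, which applied to 16 members, the median log2 of the pooled ratio was 5.63 over members and 3.62 over all. The members' median was 1.41 without TetLowReg replicate 7, -0.50 in a fit of the 2 groups alone and -0.54 with a stricter filter. Eif2ak3 and Eif6 were higher without overlap (2 of 50, against 4.8% of all genes tested). For both, TetLowReg replicate 6 and the highest TetHighProg library held 1 count each, so that the order rested on the library totals.

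DESeq2 on the 2 groups called 13 of the 36 members it tested, all higher in TetLowReg, against 34.4% of the genes it tested (33.9% higher). DESeq2 on the 3 groups called 17 of 42 (35.7% of genes) and limma-voom 28 of 50 (41.5%). Since edgeR called none of these members, the calls by DESeq2 and their adjusted p depend on the tool. The 5 with the largest fold by that tool were Eif1ad, Eif3g, Eif6, Eif2s1 and Eif4b. Pooled over libraries, Eif1ad was at least 2874-fold, Eif3g at least 1657-fold, Eif2s1 at least 1071-fold and Eif4b at least 838-fold higher, and Eif6, with 1 count in TetHighProg, was 6535-fold higher (95% counting interval 1173 to 258179). All counts of these genes in TetLowReg, apart from 1 count of Eif6, came from replicates 7 and 8. DESeq2's adjusted p was 0.0138, 0.0152, 0.0105, 0.0175 and 0.0202 for Eif1ad, Eif3g, Eif6, Eif2s1 and Eif4b, and edgeR's was 0.233 for each. Over the 23 alternatives the adjusted p of these 5 genes ran from 7.44e-10 to 0.582. The number called was 5 of 40 without TetHighProg replicate 1 (14.8% of all genes tested in that fit), 24 of 42 without TetLowReg replicate 6 (56%) and 8 of 33 without TetLowReg replicate 7 (25.2%). Both replicates 7 and 8 were among those with high macrophage and dendritic cell markers (5.59 and 4.04% of gene counts), whose part was not tested.

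For TetLowProg against TetHighProg, edgeR again called 0 of 50 members and 0 of all genes tested (0%). At an unadjusted p under 0.05 there were 14 of 50 members, all higher in TetLowProg, against 25.4% of all genes tested (24.8% higher). That count was 2 of 12 with a stricter filter (18.6% of all genes), 12 of 66 without a filter (4.92%) and 1 of 28 in a fit of the 2 groups alone (4.71%). With each library left out it was 0 to 19 (1.95 to 31.6% of all genes). The median fitted log2 difference was 5.85 over members and 5.40 over all genes tested, and 6.41 and 5.23 as pooled ratios with groups at 0 set to 3 counts. The 6 members higher without overlap, against 6.67% of all genes tested, were Eef1a1, Eif3g, Eif3h, Eif4b, Eif4e2 and Eif6, and 0 members were lower (0.499%). Of the 6, only Eef1a1, Eif3h and Eif4e2 had more than 1 count in TetLowProg replicate 10.

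DESeq2 on the 2 groups called 20 of 40 members tested, all higher in TetLowProg, against 47.5% of the genes it tested (47.4% higher). DESeq2 on the 3 groups called 21 of 42 (44.3% of genes) and limma-voom 35 of 50 (49.9%). Here too edgeR called none of them. The 5 with the largest fold by DESeq2 on the 2 groups were Eif3b, Eif1ax, Eif3g, Eif4h and Eif2s1, all at 0 in TetHighProg. DESeq2's log2 differences were 27.7, 26.8, 14.9, 13.8 and 13.6 in that order. The pooled ratios were larger for Eif3h (11118-fold) and Eif6 (10746-fold), each with 1 count in TetHighProg, but ratios of genes at 0 are lower bounds. Pooled over libraries, the 5 named by DESeq2 were at least 4980.0-fold, 3204-fold, 6887-fold, 3175-fold and 2671-fold higher. Their counts came from replicates 9 and 12 apart from 1 count of Eif3g. Eif4h, a cofactor of the helicase, held 3465 and 7414 counts in these replicates and 6 and 14 in TetLowReg replicates 7 and 8. DESeq2's adjusted p was 1.4e-10 for Eif3b, 2.31e-10 for Eif1ax, 0.000643 for Eif3g, 0.0039 for Eif4h and 0.00421 for Eif2s1, and edgeR's was 0.193 for each. Over the 23 alternatives the adjusted p of these 5 ran from 1.19e-10 to 0.506. TetLowProg replicate 9 had 55 members found with 0.0102% of counts on macrophage and dendritic cell markers and 1 B cell marker, and replicate 12 had 55 with 6.10% and 6. With each library left out, DESeq2 called 19 to 34 members, the most without TetLowProg replicate 10 (34 of 48, against 69.4% of all genes tested in that fit).

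For TetLowProg against TetLowReg, edgeR called 0 of 50 members and 0 of all genes tested (0%), and it listed 0 of 50 members at an unadjusted p under 0.05, against 0.929% of all genes tested. DESeq2 called 0 of 38 members on the 2 groups (0.3% of the genes it tested) and 0 of 42 on the 3 groups (1.87%), and limma-voom called 0 of 50 (0%). The median fitted log2 difference was 0.66 over members and 0.35 over all genes tested. It was 1.93 and 1.23 with library size in place of the TMM factors, and 1.78 and 1.30 as pooled ratios. With 70% of members and 55.5% of all genes tested above 0, the balance depended on scaling, and with library size in place of the TMM factors it was 86% and 70.0%, while the median of all genes moved by 0.88. The same change of scaling moved that median by -0.59 for TetLowReg and 0.35 for TetLowProg against TetHighProg.

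**Figure D4:**
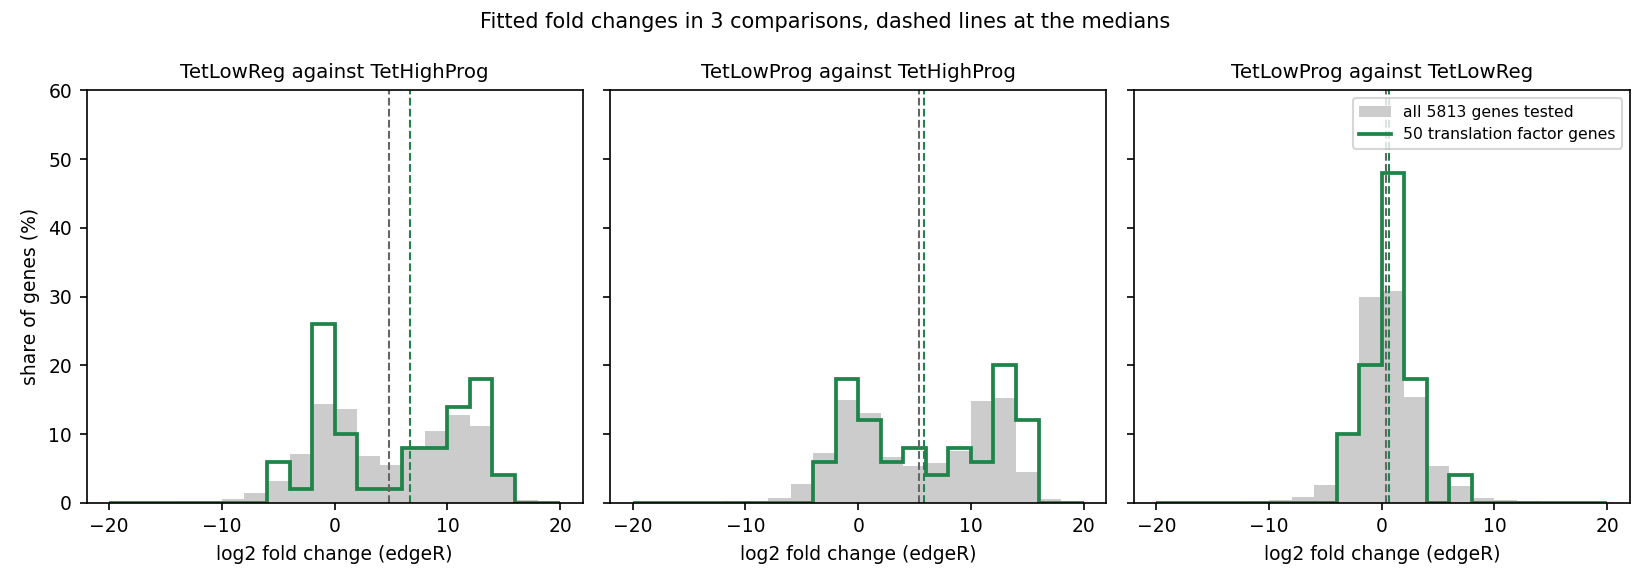
Distribution of fitted log2 fold changes (edgeR) in the 3 comparisons, as a share of genes in bins of 2, for all 5813 genes tested (gray) and the 50 translation factor genes among them (green line), with dashed lines at the medians. Against TetHighProg both distributions have a peak near 0 and another at 10 to 14, except that the upper peak of the members in TetLowProg lies at 12 to 16. Between the low avidity groups both have 1 peak near 0.

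Messages for many translation factors begin with a C followed by a run of pyrimidines, the 5' terminal oligopyrimidine tract through which mTORC1 and Larp1 regulate them. In the first bases of the Ensembl canonical transcripts (GRCm39, transcript strand only), a C with at least 4 further C or T beginning within the first 5 bases was present in 9 of 80 members (11.2%) and in 10.8% of 20726 protein-coding genes. The 9 were Eef1a2, Eef1e1, Eif2ak4, Eif2s1, Eif2s3x, Eif3f, Eif3g, Eif3k and Eif4a3l1, and 1 of them was found in 5 or more libraries, against 26 of the 71 without a tract. Eif2s1 and Eif3g, named by DESeq2 above, and Eif5 and Eef1a1, the members with the most counts in a library, are shown, with the tract in capitals, 30 bases from the transcript start.
Eif2s1 (chr12:78908593-78908622, plus strand): CTCTTggttgactaaaacttaaagcgatca
Eif3g (chr9:20809898-20809927, minus strand): gaagCCTCTTCTactccggcttcctgtctt
Eif5 (chr12:111504439-111504468, plus strand): ggaagggaaggaagctgggacaggcaggag
Eef1a1 (chr9:78388977-78389006, minus strand): ttcccgagggtgggggagaacggtatataa
Neither Eif5 nor Eef1a1 had such a tract in this window of the annotated start. A different transcript start would give a different window, and the counts do not show which start the cells used. The shares of 11.2 and 10.8% therefore describe annotated starts and cannot show how many messages of these cells carried a tract. The 80 members also include the Eif1ad genes, none of which had a tract.

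Translation factor genes have many processed copies elsewhere in the genome, and reads that mapped to several places were not counted. Of the 80 members, 21 shared at least 50% of the 31-base windows of their canonical transcript with another place in GRCm39, and the median was 9.40%. The share was 94.7% for Eif2s3x, 91.3% for Eif4a1, 86.7% for Eef1a1, 72.5% for Eef1g, 68.3% for Eif1, 45.5% for Eif2s2, 39.1% for Eif5a, 28.6% for Eif5 and 9.89% for Eif3c. The levels of those with a high share are uncertain and may be underestimated. Exons of other annotated genes overlapped 24.7% of the exonic bases of Eif4a1, 31.8% of Eif5a, 19.4% of Eif5 and 20.5% of Eef1b2 (for Eif5a the genes Gps2, Ybx2 and Gm72759, for Eef1b2 among others Ndufs1), and reads assigned to more than 1 gene are left out of the counts, so that levels there may be underestimated too.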

How the data were processed

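RNA-seq was measured in 9 libraries of sorted T cells in 3 groups of 3. The authors aligned reads to GRCm39 with STAR 2.7.6a, and the deposited values are raw counts per gene without normalization. The methods name featureCounts, while the tables have the layout of STAR's own counts. The annotation release is not given in the sources used here. Reads at several places or on overlapping genes are left out of these counts. The unstranded counts were used, 4 summary lines were left out, and names, lengths and coordinates came from GENCODE M39, which matched 28645 of 32976 genes. CPM scales a gene's counts to the total of gene counts. Depth was 16405306 to 36429515 gene counts per library, and intervals and limits from 3 counts cover counting error only, since PCR copies are counted separately.

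Tests were edgeR 4.0.16 (quasi-likelihood, TMM factors 0.600 to 1.82, default filter, one model for the 3 groups, Benjamini-Hochberg adjustment, two-sided) in R 4.3.3, and for single values per library exact permutation tests. The common dispersion was 8.12. DESeq2 1.42.0 (adjusted p left as NA where it gave none) and limma 3.58.1 (voom with quality weights) were alternatives, with other filters, scalings, minimum counts, thinning to the smallest total and each library left out. The scripts were tested on simulated data. The members and lists were chosen with earlier results of these data known. Named were 30 core genes, members found in at least 7 libraries, members without overlap between 2 groups, the 5 largest rises and falls called by edgeR or else DESeq2, and the top member of each library. Other members named were chosen after their values were seen. SciPy 1.17.1, NumPy 2.4.6, pandas 2.3.3 and matplotlib 3.10.9 in Python 3.11.15 were used.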

Additional observations from a re-analysis of the deposited data

How the results depend on the processing

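The number of members called by edgeR was 0 in every comparison under every edgeR alternative, including each library left out and the added fit without the 4 libraries with under 2000 genes. For TetLowReg and TetLowProg against TetHighProg it was 17 and 21 by DESeq2 on the 3 groups, 14 of 41 and 14 of 41 with poscounts size factors (26.8 and 25.5% of all genes tested), 13 and 20 by DESeq2 on the 2 groups and 28 and 35 by limma-voom (backgrounds of 41.5 and 49.9% of all genes tested). DESeq2 on the 2 groups with each library left out, added after seeing the data, gave 5 to 24 (14.8 to 56% of all genes) and 19 to 34 (35.2 to 69.4%), with 26 of 43 without TetHighProg 5 (55.1%) and 26 of 41 without TetLowProg 12 (66%). At an unadjusted p under 0.05 the edgeR counts of 9 and 14 became 2 and 2 with the stricter filter (17 and 18.6% of all genes) and 0 and 1 in fits of the 2 groups alone (2.69 and 4.71%). Without a filter they became 5 of 66 and 12 of 66 (4.38 and 4.92% of all genes). Leaving out each library gave 0 to 18 and 0 to 19: 0 to 2 without any of TetHighProg 1, 2 and 5, TetLowReg 7 and 8 and TetLowProg 9 and 12 (1.6 to 3.95% of all genes), and 15 to 19 of 57 without TetLowReg 6 or TetLowProg 10 (24.4 to 31.6%). Between the low avidity groups this count was 0 to 1 with each library left out, and 2 of 61 without the 4 libraries (3.74%). Median log2 differences with each library left out ran from 1.41 to 10.26, 4.59 to 11.04 and 0.05 to 2.63, the highest of the middle range without TetHighProg 5, and the first median was -0.54 with the stricter filter and -0.50 on the 2 groups alone. The difference in members found between TetLowProg and TetLowReg ran from -7.67 to 21 and those against TetHighProg from 10.3 to 32.3 and 17.3 to 39.3. Shares kept their direction under every alternative (-0.358 to -0.175, 0.308 to 0.630 and 0.585 to 0.907 percentage points with each library left out). The 10 results named by fold were past the threshold in 97 of 230 alternative fits; their direction was fixed by the choice of genes at 0 or 1 count in TetHighProg. The cause of these changes was not tested. Thinned to the smallest total, the libraries held 6 to 55 members. No paired analysis was possible because the sources used here do not say which libraries share a tumor, and the groups share no replicate numbers that could stand for it.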
